A study of Mus musculus with 17 samples.

Results

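Airway secretory cells line the conducting airways of the lung and release the proteins of the airway surface liquid. The 8 genes described here, Scgb1a1, Scgb3a1, Scgb3a2, Cyp2f2, Bpifa1, Bpifb1, Muc5b and Reg3g, are markers of these cells chosen by name. The choice was made with earlier results of these data known. All 8 genes were found by symbol among the 54146 genes of the deposited tables. They were measured by RNA sequencing of whole lung from mice that were Clic4 knockout (KO) or wild type (WT), at 14 days or at day 0. There were 17 libraries, 5 of KO lung and 6 of WT lung at day 14, and 2 of KO lung and 4 of WT lung at day 0. Clic4 encodes a chloride intracellular channel protein. The strain label pairs FVB with 6DT1, the name of a mouse mammary tumour line, for all 4 groups, and what the mice received between the days is not in the labels. The library titles name the day 0 libraries Control and the day 14 libraries 14 Days. The age was 8 weeks at day 14 and 6 weeks at day 0, so that day and age cannot be told apart. The text on the study's design gives other group sizes than the labels, and the labels were followed; nothing ties a library to an animal, so p-values measure the spread between libraries, which may be partly technical.

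Club cells are the secretory cells that prevail in the mouse bronchioles. They secrete secretoglobins, small proteins of which Scgb1a1 is the defining product, and they carry cytochrome P450 enzymes such as Cyp2f2 that metabolise inhaled chemicals. Goblet cells and the secretory cells of the larger airways make the gel-forming mucin Muc5b and BPI-fold proteins, and Reg3g is an antibacterial lectin that epithelia make in response to microbes. Secretory cells also act as progenitors of other airway cells, and Notch signalling holds airway cells in the secretory state.

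Libraries held 20607811 to 35743830 counts. Clic4 stood at 301.5 to 399.1 counts per 1000000 counts (CPM) in KO lungs and at 924.7 to 1281 CPM in WT lungs, so that every KO library lay below every WT library. One library, KO day 0 library 2, stood apart by Ucp1, a gene of brown fat, at 24.2 CPM against at most 6.55 CPM in the other 16. In bulk tissue, fewer cells of a type and less RNA per cell cannot be told apart.

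Promoter sequence is shown for a set of members whose levels moved together between libraries (described further on), Bpifa1, Bpifb1, Scgb3a1 and Reg3g. Scgb1a1, Scgb3a2 and Cyp2f2 moved together as well. Among these a stretch was available for Cyp2f2 alone, so that a shared sequence feature could not be looked for. Each stretch is the 250 bases before the RefSeq start of the gene, the first of 2 starts for Bpifb1, on the gene's own strand, build GRCm38.p6, with capitals for any match to the motifs searched. Bpifa1 and Bpifb1 are neighbours on chromosome 2. Their stretches are chr2:154142630-154142879 and chr2:154190568-154190817 on the plus strand, that of Scgb3a1 is chr11:49663345-49663594 on the plus strand, and that of Reg3g is chr6:78468875-78469124 on the minus strand.
Bpifa1: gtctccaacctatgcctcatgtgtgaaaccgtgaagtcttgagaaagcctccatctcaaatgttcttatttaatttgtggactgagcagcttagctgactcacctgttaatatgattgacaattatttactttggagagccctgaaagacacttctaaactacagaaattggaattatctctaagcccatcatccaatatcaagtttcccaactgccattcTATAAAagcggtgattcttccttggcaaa
Bpifb1: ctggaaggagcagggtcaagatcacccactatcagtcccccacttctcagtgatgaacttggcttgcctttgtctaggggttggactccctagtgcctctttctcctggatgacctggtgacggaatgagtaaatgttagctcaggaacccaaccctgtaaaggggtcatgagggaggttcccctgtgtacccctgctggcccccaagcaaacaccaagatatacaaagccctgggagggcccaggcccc
Scgb3a1: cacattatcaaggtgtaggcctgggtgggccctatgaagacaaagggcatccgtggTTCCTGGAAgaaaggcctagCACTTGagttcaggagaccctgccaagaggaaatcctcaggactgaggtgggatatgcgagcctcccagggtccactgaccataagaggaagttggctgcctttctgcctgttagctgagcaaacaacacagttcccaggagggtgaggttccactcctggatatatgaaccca
Reg3g: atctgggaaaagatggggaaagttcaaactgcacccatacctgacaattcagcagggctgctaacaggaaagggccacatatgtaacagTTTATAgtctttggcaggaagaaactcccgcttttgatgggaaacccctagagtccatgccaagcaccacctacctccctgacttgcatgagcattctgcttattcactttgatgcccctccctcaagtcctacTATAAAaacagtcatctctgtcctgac

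A total of 5 motifs was searched on both strands, with N for any base. FOXA factors and NKX2-1 are regulators of lung epithelium, and their letters were taken as TGTTTAC for FOXA and as CAAGTG for NKX2-1. STAT factors act downstream of cytokines, with the letters TTCNNNGAA. The letters for C/EBP factors were TTGCNNAA, and those for the TATA box were TATAAA. Bpifa1 had TATAAA at 29 to 24 bases before its start and Reg3g had it at 27 to 22 bases before its start. Reg3g held a second copy, on the other strand as TTTATA, at 161 to 156 bases before the start. Scgb3a1 had the STAT letters as TTCCTGGAA at 194 to 186 bases before its start and the NKX2-1 letters, on the other strand as CACTTG, at 174 to 169 bases before it. The Bpifb1 stretch shown held no match, and no motif was found in all 4 stretches shown. The RefSeq table gives Bpifb1 a second start further into the gene, and the stretch before it, chr2:154200130-154200379, held the STAT letters as TTCCAGGAA at 146 to 138 bases before that start. Among the 32851 stretches of this length in the RefSeq table, 12.37% held TATAAA, 7.02% the STAT letters, 11.61% the NKX2-1 letters, 9.56% the C/EBP letters and 3.17% the FOXA letters. These matches describe the letters alone.

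All 8 members are protein coding in GENCODE M21 on GRCm38. Scgb1a1 lies at chr19:9083636-9087958 on the minus strand, Scgb3a1 at chr11:49663610-49665118 on the plus strand and Scgb3a2 at chr18:43764289-43767399 on the plus strand. Cyp2f2 lies at chr7:27119909-27133660 on the plus strand. It overlaps Gm15883 on the minus strand, which had 3.83 to 9.74 CPM; the strand of counting is not given in the sources used here, so reads of the pair cannot be told apart. Muc5b lies on the same chromosome at chr7:141839070-141873084 on the plus strand, and Reg3g at chr6:78466269-78468872 on the minus strand. The neighbours Bpifa1 and Bpifb1 lie at chr2:154142880-154149219 and chr2:154190818-154220369, both on the plus strand.

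Secretory transcripts spanned several orders of magnitude in these lungs. Levels between genes are compared as FPKM, a count of fragments scaled to transcript length and library size, which the authors deposited. Scgb1a1, the main secretoglobin of club cells, had 53558 ± 6013 FPKM (SD, n = 17 libraries, as for the values that follow). It was the gene with the highest FPKM in 17 of 17 libraries, where it took 7.21 to 10.8% of the summed FPKM, and it took 1.29 to 1.98% of all counts. Scgb3a2, a second club cell secretoglobin, had 1408 ± 166 FPKM. Cyp2f2, a monooxygenase that activates naphthalene in mouse club cells, had 898 ± 104 FPKM. Scgb3a1, a secretoglobin of the larger airways, had 589 ± 131 FPKM.

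The defence proteins came below the secretoglobins. Bpifa1, a surfactant-like protein of the upper airways, had 87.9 ± 61.7 FPKM, and its relative Bpifb1 had 44.4 ± 14.1 FPKM. Reg3g had 27.1 ± 10.5 FPKM. Muc5b, the principal mucin of healthy mouse airway mucus, had 5.26 ± 1.68 FPKM; its transcript has an effective length of 14783 bases in these files, against 294 for Scgb1a1, and before scaling to length it had 77.8 ± 25.1 CPM. Each neighbour in this order of FPKM lay above the next in 17 of 17 libraries, except Bpifa1 over Bpifb1, which held in 15 of 17. Ranges over libraries overlapped between Scgb3a2 and Cyp2f2, Cyp2f2 and Scgb3a1, Bpifa1 and Bpifb1, and Bpifb1 and Reg3g.

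Members differed in how much they varied between libraries of the same group. The SD of log2 CPM around the group means was 0.15 for Scgb1a1, 0.15 for Cyp2f2 and 0.16 for Scgb3a2, which 41.2, 42.2 and 44.4% of the 19557 genes tested stayed under. It was 0.28 for Scgb3a1, 0.38 for Muc5b, 0.47 for Bpifb1 and 0.58 for Reg3g. Bpifa1 had an SD of 1.48, and 99.6% of the genes tested varied less. Over all 17 libraries, the highest CPM was 1.501 times the lowest for Scgb1a1, 2.20 times for Scgb3a1 and 77.9 times for Bpifa1.

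**Figure D1:**
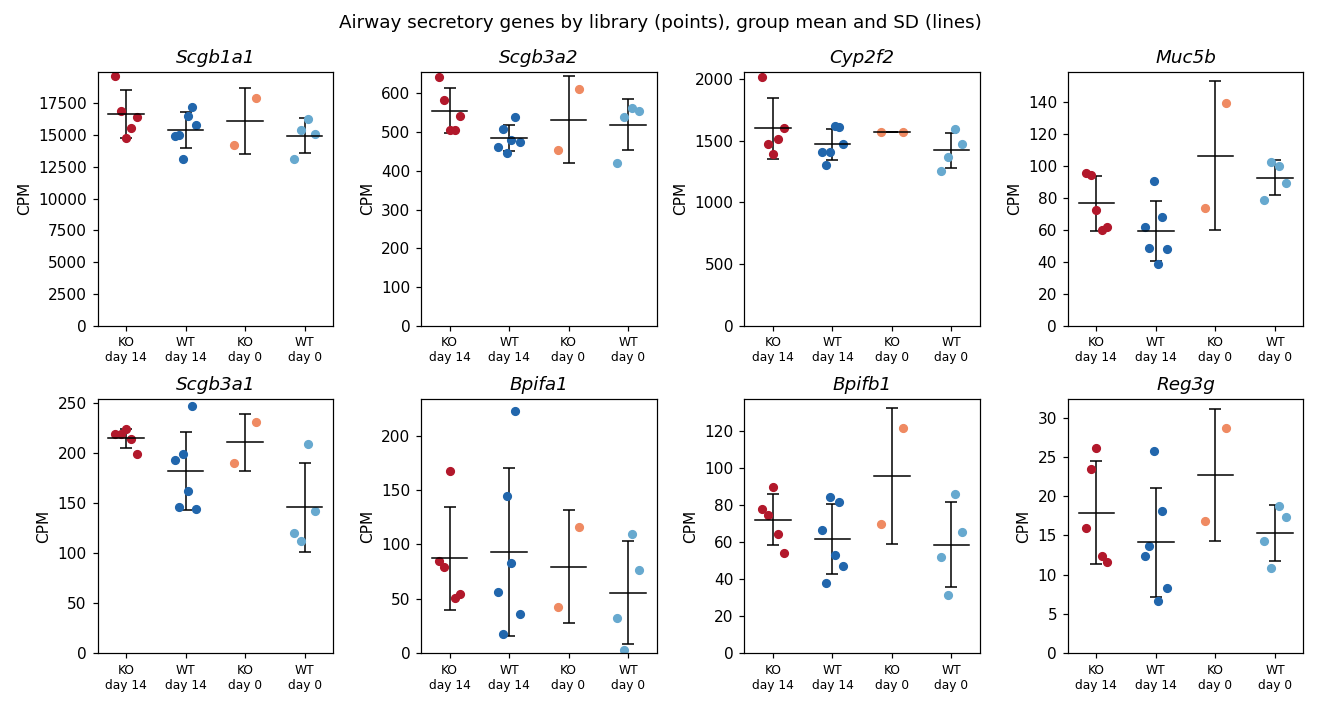
Counts per 1000000 (CPM, linear axes from 0) of the 8 secretory genes in each library, 1 point a library, for KO and WT lungs at day 14 and at day 0, with lines for the group mean and bars for the SD. The points of KO and WT lungs overlap in every panel, and Bpifa1 spans 2.86 to 222.8 CPM.

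The comparison of KO with WT lungs sets lungs of mice labelled Clic4 knockout against lungs of WT mice. At day 14, none of the 8 secretory genes passed the test in KO against WT lungs (edgeR quasi-likelihood test, adjusted p under 0.05 by Benjamini-Hochberg over 19557 genes), where 0.107% of all genes tested did, 21 in number. The log2 fold change (KO over WT) was above 0 for 7 of 8 members, with a median of 0.21, against 50.3% of all genes and a median of 0.00. As the members vary together, their directions are not independent. The groups overlapped for every member. The share of all genes whose groups overlap was not counted, so nothing particular to the members is read from this.

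The club cell genes had the narrowest intervals of the 8 between genotypes at day 14. Scgb1a1 had 19637, 16873, 14734, 15582 and 16393 CPM in KO lungs, against 14898, 14973, 13143, 16507, 17173 and 15788 CPM in WT lungs (lowest, median and highest in WT 13143, 15381 and 17173). The highest library was a KO one and the lowest a WT one, with the other 4 KO values within the WT range. The fold was 1.08 with a 95% interval of 0.953 to 1.22, and the adjusted p from edgeR was 0.755. Scgb3a2 had 641.6, 582.7, 504.2, 506.3 and 540.7 CPM in KO lungs, against 462.5, 508.6, 446.9, 480.6, 538.1 and 474.8 CPM in WT lungs. Here 3 KO libraries lay above every WT library, and the other 2 lay within the WT range. Its fold of 1.14 had an interval of 1.01 to 1.302, and its p was 0.0424 before adjustment and 0.538 after it by edgeR (exact permutation p = 0.0281 for the 1 gene, two-sided, the smallest possible being 0.00216). Cyp2f2 had 2020, 1474, 1396, 1511 and 1604 CPM in KO lungs, against 1411, 1302, 1411, 1620, 1608 and 1472 CPM in WT lungs. KO library 1 lay above the rest, which overlapped, and the fold was 1.09 with an interval of 0.960 to 1.23.

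The secretory genes of the larger airways had wider intervals at day 14. Scgb3a1 had 218.5, 218.4, 223.5, 213.5 and 198.6 CPM in KO lungs, against 192.7, 146.4, 199.0, 161.6, 246.4 and 143.9 CPM in WT lungs. KO libraries lay close together and WT libraries spread to both sides of them. The fold was 1.18 with an interval of 0.931 to 1.499, and the adjusted p from edgeR was 0.710. Bpifa1 had 84.6, 79.2, 167.7, 50.8 and 54.3 CPM in KO lungs, against 55.9, 17.1, 144.8, 83.0, 222.8 and 36.3 CPM in WT lungs. WT libraries held both the highest and the lowest value, and the fold of 0.938 had an interval of 0.303 to 2.90 on either side of 1. Bpifb1 had 77.7, 74.9, 90.0, 64.2 and 54.0 CPM in KO lungs, against 66.7, 37.9, 84.1, 52.9, 81.8 and 46.8 CPM in WT lungs, with a fold of 1.17 and an interval of 0.784 to 1.75.

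Muc5b and Reg3g also overlapped between genotypes at day 14. Muc5b had 95.8, 94.0, 72.6, 60.2 and 61.5 CPM in KO lungs, against 61.9, 48.8, 90.5, 38.5, 67.9 and 47.9 CPM in WT lungs. The 3 lowest libraries were WT and the 2 highest were KO. Its fold of 1.297 had an interval of 0.931 to 1.81 and an adjusted p of 0.673 by edgeR. Reg3g had 16.0, 23.4, 26.1, 12.4 and 11.6 CPM in KO lungs, against 12.3, 13.7, 25.7, 6.66 and 18.1 CPM in WT libraries 1 to 5 and 8.32 CPM in WT library 6. The highest KO and the highest WT library were close, and the fold was 1.27 with an interval of 0.772 to 2.09.

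At day 0, none of the 8 members passed the same test in KO against WT lungs, where 0.0256% of all genes tested did, 5 in number. All 8 log2 fold changes were above 0, with a median of 0.36, against 50.2% of all genes. Scgb3a1 had 190.3 and 230.8 CPM in KO lungs, against 119.4, 111.8, 209.1 and 141.5 CPM in WT lungs. WT library 3 lay between the KO libraries and the other 3 lay below both. The fold was 1.45 with an interval of 1.03 to 2.03, and its p was 0.0329 before adjustment and 0.724 after it by edgeR. Bpifb1 had 69.5 and 121.5 CPM in KO lungs, against 51.9, 31.4, 86.0 and 65.2 CPM in WT lungs, with a fold of 1.63 and an interval of 0.930 to 2.85. With 2 KO libraries against 4 WT libraries, an exact permutation test cannot go below p = 0.0667.

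The other members at day 0 had intervals that held 1. Scgb1a1 had 14241 and 17916 CPM in KO lungs, against 13084, 15388, 16277 and 15062 CPM in WT lungs, and Scgb3a2 had 452.5 and 611.3 CPM in KO lungs, against 421.4, 538.1, 563.2 and 553.8 CPM in WT lungs. In both genes the 2 KO libraries lay on either side of most WT libraries, with folds of 1.08 and 1.02. Cyp2f2 had 1574 CPM in each KO library, against 1253, 1367, 1592 and 1472 CPM in WT lungs, with a fold of 1.11. Bpifa1 had 42.5 and 116.4 CPM in KO lungs, against 32.4, 2.86, 109.9 and 76.8 CPM in WT lungs; its fold of 1.43 had an interval of 0.292 to 7.06. Muc5b had 73.4 and 139.5 CPM in KO lungs, against 78.5, 102.4, 100.3 and 89.6 CPM in WT lungs, with a fold of 1.15. Reg3g had 16.8 and 28.7 CPM in KO lungs, against 14.3, 10.8, 18.8 and 17.3 CPM in WT lungs, with a fold of 1.49 and an interval of 0.740 to 2.98.

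KO day 0 library 2 was the higher of the 2 KO libraries for 7 of the 8 members, and level with the other for Cyp2f2. Without this library, which is the one with Ucp1 at 24.2 CPM, the log2 fold change at day 0 turned below 0 for 4 members, to -0.07 for Scgb1a1, -0.20 for Scgb3a2, -0.38 for Bpifa1 and -0.34 for Muc5b. It stayed above 0 for the others, at 0.39 for Scgb3a1, 0.15 for Cyp2f2, 0.25 for Bpifb1 and 0.13 for Reg3g, each of them with 1 KO library whose spread is assumed to be that of the other groups. The effect of KO at day 14 minus that at day 0 was called for 0 of 8 members, and for 0% of all genes tested. It ran from -0.61 for Bpifa1 (SE 1.31) to 0.18 for Muc5b (SE 0.391).

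**Figure D2:**
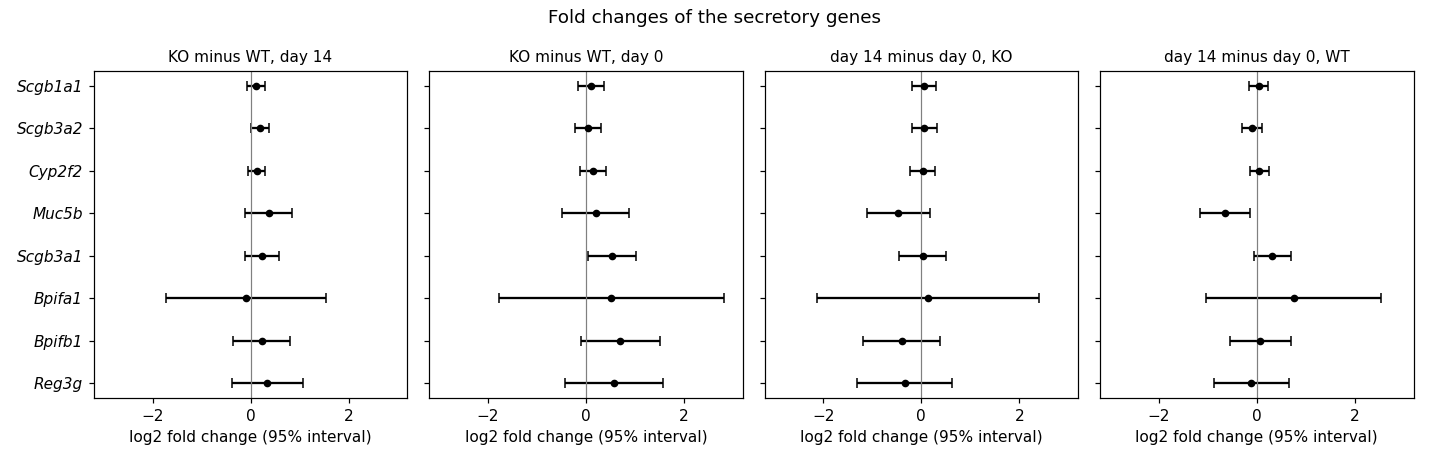
Log2 fold change of each secretory gene (points) with its 95% interval (bars) in KO against WT lungs at day 14 and at day 0, and at day 14 against day 0 in KO and in WT lungs. All intervals hold 0 except those of Scgb3a2 in KO against WT lungs at day 14, Scgb3a1 in KO against WT lungs at day 0 and Muc5b at day 14 against day 0 in WT lungs, and none of these passed after adjustment.

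Between days, no member passed either, at day 14 against day 0 in KO lungs or in WT lungs, where 0% of all genes tested passed in both. In these comparisons 1770 genes in KO lungs and 1772 in WT lungs had an unadjusted p under 0.05, and DESeq2 called 93 and 113 genes, none of them a member. The comparison in WT lungs with the smallest p was that of Muc5b. It had 61.9, 48.8, 90.5, 38.5, 67.9 and 47.9 CPM at day 14, against 78.5, 102.4, 100.3 and 89.6 CPM at day 0. Of the 6 libraries of day 14, 5 lay below every library of day 0 and the other lay within their range. The fold (day 14 over day 0) was 0.639 with an interval of 0.450 to 0.907, and the p was 0.0160 before adjustment and 0.417 after it by edgeR (exact permutation p = 0.0286, two-sided). In KO lungs Muc5b had a fold of 0.722 with an interval of 0.461 to 1.13.

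Scgb3a1 in WT lungs had a fold of 1.25 at day 14 over day 0, with an interval of 0.966 to 1.61, and in KO lungs 1.02 with an interval of 0.732 to 1.42. The club cell genes were close to level over the 14 days. Scgb1a1 had folds of 1.04 in KO lungs (0.870 to 1.23) and 1.03 in WT lungs (0.902 to 1.18), and Cyp2f2 had 1.02 in KO lungs (0.855 to 1.21) and 1.04 in WT lungs (0.905 to 1.18). For Scgb3a2 they were 1.04 in KO lungs (0.872 to 1.25) and 0.935 in WT lungs (0.814 to 1.07). The interval of each of these 3 genes held 1 in both genotypes. Bpifa1 had 1.10 in KO lungs (0.229 to 5.30) and 1.68 in WT lungs (0.491 to 5.78), so that its changes were not detectable at this spread unless they were several fold.

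The members differed in which others they moved with between libraries of the same group, and 7 of them are described as 2 sets that were drawn up from these values. After the group means of log2 CPM were removed, so that genotype and day gave no correlation, 10 of 28 pairs of members passed an adjusted p of 0.05 in a permutation test within groups (100000 resamples, two-sided, Benjamini-Hochberg over the 28 pairs), and all 10 were positive. Spearman's rho passed for 11. The points of a pair share their library and its scaling. Scgb1a1 and Scgb3a2 had r = 0.890 (rho = 0.890, adjusted permutation p = 0.00196), with 0.968 in KO libraries and 0.805 in WT libraries. Scgb1a1 and Cyp2f2 had r = 0.758 (rho = 0.755, adjusted permutation p = 0.00539). Scgb3a2 and Cyp2f2 had r = 0.587 (rho = 0.615, adjusted permutation p = 0.0346), which missed the threshold in 7 of 17 runs that left out 1 library. It was 0.366 without the 2 libraries farthest from the median of Scgb3a2, KO day 14 library 1 and WT day 0 library 1, and so rests on those libraries. Scgb1a1 without the same 2 libraries kept r = 0.857 with Scgb3a2 and 0.626 with Cyp2f2. Farthest libraries were taken by log2 CPM before group means were removed. They are those of the gene named first in a pair unless stated, and of the member where a list is used.

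The second set held the defence genes and Scgb3a1. Bpifa1 and Bpifb1, the neighbours on chromosome 2, had r = 0.928 (rho = 0.904, adjusted permutation p = 0.00056), with 0.929 in KO libraries and 0.944 in WT libraries, and 0.890 without the 2 farthest libraries. Scgb3a1, on chromosome 11, had r = 0.872 with Bpifb1 (rho = 0.922, adjusted permutation p = 0.00364) and 0.793 with Bpifa1 (rho = 0.787, adjusted permutation p = 0.0346), which missed the threshold in 3 of 17 runs that left out 1 library. These stood at 0.873 and 0.825 without the 2 farthest libraries. Reg3g, on chromosome 6, had r = 0.718 with Bpifb1 (rho = 0.760, adjusted permutation p = 0.0121), 0.607 with Scgb3a1 (rho = 0.738, adjusted permutation p = 0.0346) and 0.572 with Bpifa1 (rho = 0.637, adjusted permutation p = 0.0346). Without the 2 libraries farthest from the median of the other gene of each pair, and not of Reg3g, these were 0.701, 0.588 and 0.702. Leaving out 1 library at a time, the pair of Reg3g with Bpifa1 missed the threshold in 13 of 17 runs and that with Scgb3a1 in 10. Muc5b passed with Reg3g alone, at r = 0.761 (rho = 0.689, adjusted permutation p = 0.0218), and 0.695 without the 2 farthest libraries. It had r = 0.582 with Bpifb1 (adjusted permutation p = 0.0672), 0.516 with Scgb3a1 (adjusted permutation p = 0.0734) and 0.311 with Bpifa1 (adjusted permutation p = 0.335), and is placed in neither set.

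No pair of a club cell gene with one of the other 5 members passed. Of the 15 pairs of a club cell gene (Scgb1a1, Scgb3a2 or Cyp2f2) with one of the other 5, r ran from -0.180 for Cyp2f2 and Reg3g to 0.491 for Scgb3a2 and Muc5b, and the lowest adjusted permutation p was 0.198. The r of Muc5b by genotype is given without a test of the difference. In the 7 KO libraries it was 0.914 with Scgb3a2 and 0.805 with Scgb1a1, and in the 10 WT libraries it was 0.0935 and -0.281. The 2 KO libraries of day 0 mirror each other once their mean is removed. Over all libraries, leaving out 1 at a time, r of Muc5b ran from 0.323 to 0.734 with Scgb3a2 and from 0.0429 to 0.632 with Scgb1a1. Scgb1a1 and Bpifb1 had r = 0.151 (rho = 0.13, adjusted permutation p = 0.647). Libraries at the ends differed between the sets. KO day 14 library 1 had the highest Scgb1a1, Scgb3a2 and Cyp2f2, and WT day 0 library 1 the lowest of all 3. WT day 0 library 2 had the lowest Scgb3a1, Bpifa1 and Bpifb1, at 111.8, 2.86 and 31.4 CPM, while its Scgb1a1 of 15388 CPM was near the median of 15582 CPM.

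**Figure D3:**
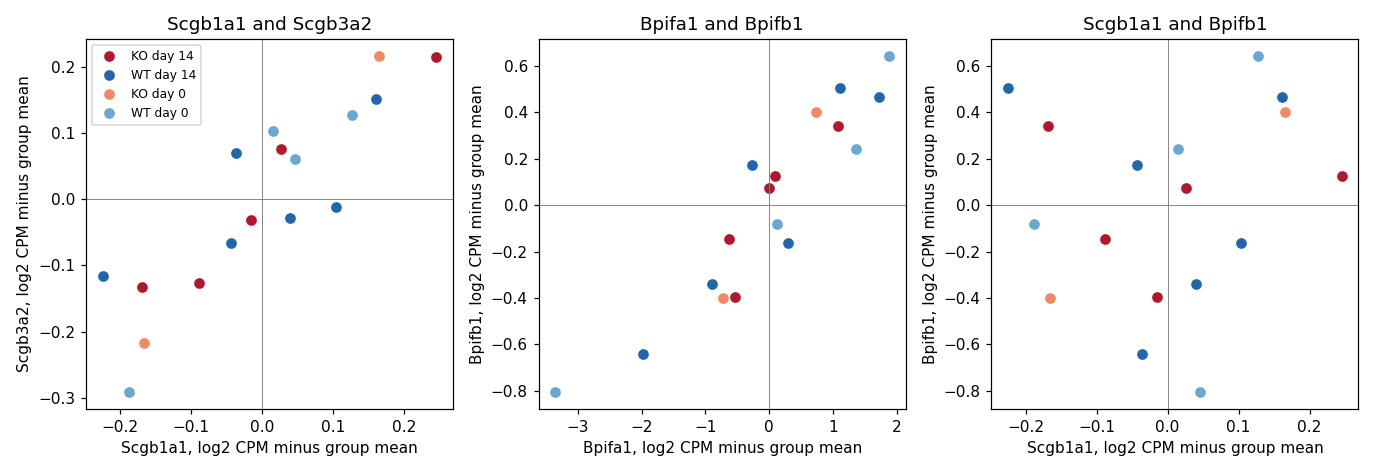
Each point is a library, placed by its log2 CPM minus its group mean for 2 genes, coloured by group. Scgb1a1 and Scgb3a2 (r = 0.890) and Bpifa1 and Bpifb1 (r = 0.928) lie along a line, and Scgb1a1 and Bpifb1 (r = 0.151) scatter.

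Markers of other airway cells moved with several members. Each member was set against the mean of 4 lists, of ciliated cells, airway basal cells, alveolar type 2 cells and smooth muscle, in the same way, and 9 of the 32 pairs passed an adjusted permutation p of 0.05 (8 by rho), all positive. Ciliated cells beat to move mucus, and their list (15 genes) had r = 0.847 with Scgb1a1 (rho = 0.855, adjusted permutation p = 0.00448), 0.780 with Cyp2f2 (rho = 0.725, adjusted permutation p = 0.0216) and 0.706 with Scgb3a2 (rho = 0.699, adjusted permutation p = 0.0279). These were 0.781, 0.600 and 0.605 without the 2 farthest libraries, and Cyp2f2 and Scgb3a2 missed the threshold in 4 and 7 of the 17 runs that left out 1 library. Basal cells are the stem cells of the trachea and main bronchi. Their list had r = 0.868 with Bpifb1 (rho = 0.890, adjusted permutation p = 0.0016), 0.768 with Scgb3a1 (rho = 0.792, adjusted permutation p = 0.00776) and 0.759 with Bpifa1 (rho = 0.836, adjusted permutation p = 0.00629). They stood at 0.902, 0.759 and 0.799 without the 2 farthest libraries.

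Reg3g and Muc5b passed narrowly with the basal cell list, at r = 0.695 (rho = 0.703, adjusted permutation p = 0.0441) and 0.698 (rho = 0.652, adjusted permutation p = 0.0481, which is 0.0834 by rho). Muc5b moved with smooth muscle as well (r = 0.697, rho = 0.713, adjusted permutation p = 0.00826). Without the 2 farthest libraries these were 0.787, 0.750 and 0.705. Leaving out 1 library at a time, Reg3g and Muc5b missed the threshold with basal cells in 14 and 15 of 17 runs. No member passed with alveolar type 2 cells, where Scgb1a1 had r = -0.541 (rho = -0.512, adjusted permutation p = 0.152). Basal markers were scarce. The summed level of the 8 was 6.87 to 12.1 CPM in KO lungs and 4.61 to 11.9 CPM in WT lungs at day 14, and 6.92 to 10.8 CPM in KO lungs and 5.60 to 7.92 CPM in WT lungs at day 0, and none of the 8 was at 0 in all libraries.

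**Figure D4:**
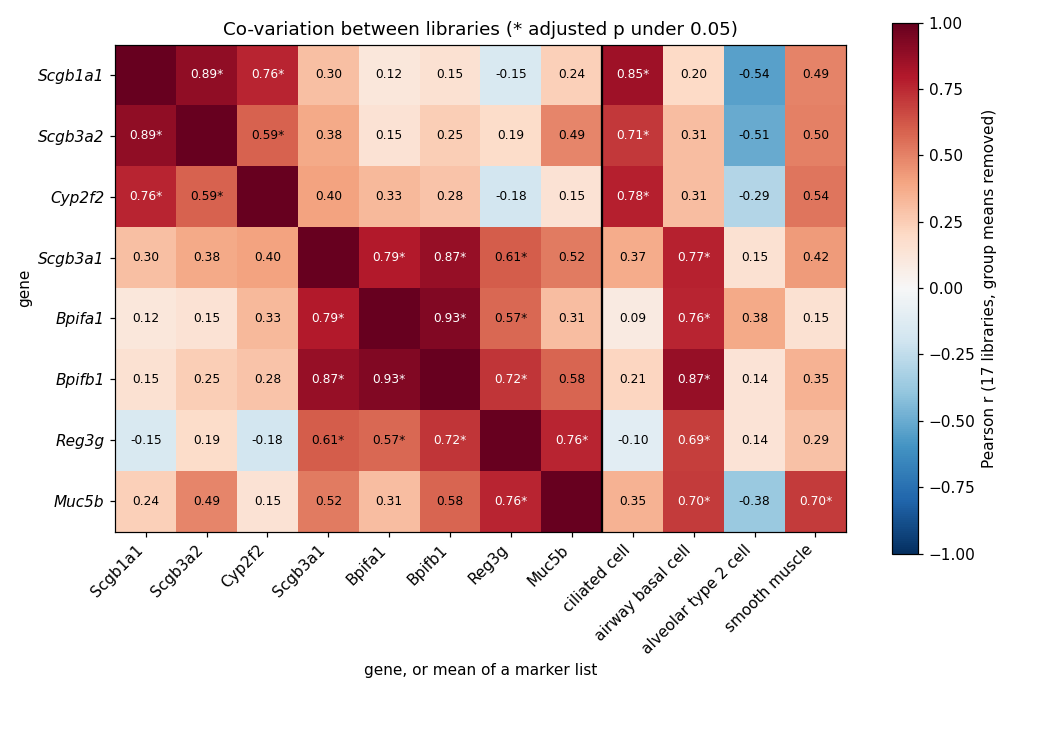
Pearson r (colour and number) between the secretory genes, and between each gene and the mean of 4 marker lists, over 17 libraries with group means removed; an asterisk marks an adjusted permutation p under 0.05. The block of Scgb1a1, Scgb3a2 and Cyp2f2 passes with ciliated cells, and Scgb3a1, Bpifa1 and Bpifb1 pass with basal cells; Reg3g and Muc5b pass with basal cells too, but miss the threshold in 14 and 15 of 17 runs that leave out 1 library.

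The same marker lists were compared between genotypes. At day 14, 14 of 15 ciliated cell genes had a log2 fold change above 0 in KO against WT lungs, with a median of 0.24 and a lowest adjusted p of 0.130 by edgeR. For basal cells it was 7 of 7 tested, with a median of 0.28 and a lowest adjusted p of 0.0634 by edgeR, for smooth muscle 9 of 10, and for alveolar type 2 cells, which are no airway cells, 12 of 15 with a median of 0.07. At day 0, 13 of 15 ciliated, 6 of 7 basal, 10 of 10 smooth muscle and 15 of 15 alveolar type 2 genes were above 0. Of all genes, 50.3% were above 0 at day 14 and 50.2% at day 0. Other marker lists did not all lean this way. Above 0 at day 14 were 2 of 8 neuroendocrine, 3 of 10 alveolar type 1, 3 of 7 submucosal gland, 2 of 5 cartilage and 5 of 5 thyroid and oesophagus genes. In the same order, day 0 gave 6 of 8, 3 of 10, 5 of 7, 3 of 5 and 5 of 5. None passed the test, where 0.107% of all genes tested did at day 14 and 0.0256% at day 0. The ciliated sum was 556.7 to 709.4 CPM in KO lungs and 535.6 to 632.5 CPM in WT lungs at day 14, and 559.7 to 643.5 CPM in KO lungs and 524.1 to 641.5 CPM in WT lungs at day 0. The share of conducting airway in each sample was not measured, and its part in the secretory gene values was not tested.

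Genes of other organs near the airway were also read. The list of thyroid and oesophagus genes summed to 5.91 to 10.1 CPM in KO lungs and 6.17 to 8.20 CPM in WT lungs at day 14, and to 9.49 to 10.2 CPM in KO lungs and 6.30 to 8.13 CPM in WT lungs at day 0, with Sprr3 at 0 in all libraries. Cartilage genes, which mark the larger airways, summed to 38.1 to 47.2 CPM in KO lungs and 32.3 to 44.2 CPM in WT lungs at day 14, and to 43.5 to 51.4 CPM in KO lungs and 32.8 to 45.7 CPM in WT lungs at day 0. Of these 12 genes, Col9a1, Matn1 and Matn3 stayed under 0.1 CPM in all libraries, the cartilage collagen Col2a1 had at most 0.513 CPM, and 5 could be tested. Sox9 is in this list and in that of the submucosal gland, so that the sum is not of cartilage genes alone. The 8 genes of the submucosal gland list, which holds Scgb3a1 and Ltf, summed to 720.8 to 793.1 CPM in KO lungs and 674.8 to 830.7 CPM in WT lungs at day 14, and to 737.9 to 808.4 CPM in KO lungs and 630.6 to 782.6 CPM in WT lungs at day 0. The peroxidase Lpo alone of these stayed under 0.1 CPM in all libraries, and Bpifa2 had at most 0.958 CPM. The list also holds Aqp5, which is listed for alveolar type 1 cells too, so that the sum is not of gland genes alone.

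Ltf, which encodes the antibacterial iron-binding protein lactoferrin, was, with the 8 members themselves left out, the gene most like 3 of them. By Pearson r over the 17 libraries with group means removed, it led the likeness of non-members to Reg3g (0.893), Bpifb1 (0.885) and Scgb3a1 (0.849). Bpifa1 was closer to Bpifb1 (0.928), and Bpifb1 was closer to Scgb3a1 (0.872). By the mean r over the 8 members, Ltf was the second of all non-members (0.574, after the unannotated Gm26724 at 0.589). Its level ran from 25.1 to 122.6 CPM. Of the 5 genes with the highest mean r, Lypd2 (0.566) had 14.0 CPM on average and the stem cell receptor gene Lgr6 (0.564) had 8.83 CPM; the other one was the deubiquitinase gene Usp7 (0.566). The next non-members most like Scgb3a1 were the fibroblast gene Dcn (0.806) and Ncam1 (0.790), and the next most like Reg3g were the prostaglandin receptor gene Ptger3 (0.860) and Oxr1 (0.829).

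Other members had their own nearest non-members. Scgb1a1 was followed most closely by Cpe, which encodes carboxypeptidase E (0.890), Actr3b (0.872) and Mapk10 (0.870). For Cyp2f2 they were Elmod1 (0.917), Gm28729 (0.845) and the chloride intracellular channel gene Clic6 (0.836), a relative of Clic4. Scgb3a2 had Pde4dip (0.858) and the heart muscle genes Dhrs7c (0.849) and Tnni3 (0.838). Bpifa1 had Pdcd2l (0.851), Tex11 (0.843) and Nppa (0.842), which encodes the atrial natriuretic peptide. Bpifb1 had, after Ltf, Rad54l2 (0.869) and Chd7 (0.853). Muc5b, with the longest transcript, had Arid1a (0.881), Clasp1 (0.865) and Med15 (0.862), which are expressed widely. These are the highest values among the non-members tested at a mean of 1 CPM or more, and they describe these libraries.

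Genes of the wider secretory programme were counted in 6 lists, and no gene of any list passed the edgeR test in KO against WT lungs or between days. Of all genes tested, 0.107% passed in KO against WT lungs at day 14, 0.0256% at day 0 and 0% between days. At these shares, lists of this size would mostly hold none. Of 15 goblet cell and mucin genes tested (16 listed), 13 had a log2 fold change above 0 in KO against WT lungs at day 14 (median 0.41), and 12 at day 0 (median 0.24). Muc5ac, the inducible gel-forming mucin, had 2.22 ± 0.594 CPM in KO lungs and 1.36 ± 0.339 CPM in WT lungs at day 14 (SD, n = 5 and 6), or 0.71 on the log2 scale (SE 0.235, adjusted p = 0.390 by edgeR). At day 0 it had 5.99 CPM in KO library 2 and 2.72 CPM in KO library 1, against 2.63 ± 0.595 CPM in WT lungs (SD, n = 4), and its log2 fold change was 0.72 with both KO libraries and 0.046 without library 2. Its log2 fold change at day 14 against day 0 was -0.97 in KO lungs (SE 0.297, adjusted p = 0.310 by edgeR; -0.29 without KO day 0 library 2) and -0.96 in WT lungs (SE 0.244, adjusted p = 0.227 by edgeR, 0.0431 by DESeq2). Muc16, a membrane mucin, had 29.7 ± 5.49 CPM in KO lungs and 21.0 ± 4.64 CPM in WT lungs at day 14, or 0.50 on the log2 scale (SE 0.146, adjusted p = 0.331 by edgeR).

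The mucin genes were also compared between days, and none passed by edgeR, where 0% of all genes tested did. The log2 fold change was under 0 for 13 of 15 goblet cell and mucin genes in KO lungs (median -0.14) and for 12 of 15 in WT lungs (median -0.41), against 52.6% and 50.4% of all genes above 0. Muc20, another membrane mucin, had 7.85 ± 0.728 CPM at day 14 and 11.2 ± 0.575 CPM at day 0 in KO lungs, and 7.73 ± 1.11 CPM at day 14 and 10.3 ± 1.24 CPM at day 0 in WT lungs. The adjusted p from edgeR was 0.274 in KO lungs and 0.264 in WT lungs. Muc1 at day 0 was at 275.7 ± 8.28 CPM in KO lungs and 233.5 ± 17.01 CPM in WT lungs. Agr2, a chaperone of mucin folding, and Muc1 had the smallest p of the list for the effect of KO at day 14 minus that at day 0, at log2 values of 0.92 (SE 0.592) and -0.16 (SE 0.106).

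The 20 club cell metabolism genes were split between directions in KO against WT lungs at day 14, with 10 above 0, and 14 were above 0 at day 0. The smallest p at day 14 belonged to the cytochrome P450 gene Cyp2s1, at 142.5 ± 21.3 CPM in KO lungs and 120.7 ± 7.35 CPM in WT lungs, and to the glutathione transferase gene Gsta4, at 60.6 ± 5.35 CPM in KO lungs and 56.1 ± 4.59 CPM in WT lungs. At day 0 it belonged to Cyp1a1, the P450 gene induced by aromatic pollutants, at 72.4 ± 43.1 CPM in KO lungs and 32.7 ± 4.26 CPM in WT lungs, and to Gstm1, at 433.5 ± 21.5 CPM in KO lungs and 391.4 ± 26.8 CPM in WT lungs. Cyp1a1 had an adjusted p of 0.749 by edgeR, and its KO value rests on 2 libraries that lie far apart. Leaving out 1 library at a time, its log2 fold change ran from 0.35 to 1.65. Between days, 16 of 20 were above 0 in KO lungs and 14 of 20 in WT lungs. Aldh1a1, an aldehyde dehydrogenase, had 1138 ± 158 CPM at day 14 and 977.1 ± 49.9 CPM at day 0 in KO lungs, and 1150.1 ± 149 CPM at day 14 and 955.5 ± 65.9 CPM at day 0 in WT lungs. Gsta3 had 145.2 ± 47.5 CPM at day 14 and 104.2 ± 0.495 CPM at day 0 in KO lungs, and 152.1 ± 35.7 CPM at day 14 and 108.0 ± 9.75 CPM at day 0 in WT lungs.

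Of 16 airway antimicrobial and barrier genes, 14 were above 0 in KO against WT lungs at day 14 (median 0.15) and 16 at day 0 (median 0.17). Hp, encoding haptoglobin, had 761.1 ± 74.2 CPM in KO lungs and 654.7 ± 50.1 CPM in WT lungs at day 14 (adjusted p = 0.390 by edgeR). Wfdc2, a secreted protease inhibitor gene, had 509.4 ± 35.2 CPM in KO lungs and 458.8 ± 21.2 CPM in WT lungs at day 14 (adjusted p = 0.394 by edgeR). At day 0, Pigr, the receptor that carries IgA across the epithelium, had 98.8 ± 10.5 CPM in KO lungs and 75.3 ± 11.1 CPM in WT lungs, and Lypd2 had 16.5 ± 3.11 CPM in KO lungs and 13.05 ± 1.48 CPM in WT lungs. Chil4, a chitinase-like gene, had 0.578 ± 0.549 CPM at day 14 and 2.66 ± 2.56 CPM at day 0 in KO lungs. In WT lungs Chil4 had 0.373 ± 0.236 CPM at day 14 and 1.12 ± 0.803 CPM at day 0 (adjusted p = 0.483 by edgeR). Lcn2, which withholds iron from bacteria, had 55.4 ± 8.99 CPM at day 14 and 84.0 ± 56.3 CPM at day 0 in KO lungs. In WT lungs Lcn2 had 51.0 ± 9.06 CPM at day 14 and 64.1 ± 12.9 CPM at day 0. Both day 0 values in KO lungs rest on 2 libraries that lie far apart.

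Close relatives of the members were mostly too low to test, with 4 of 20 tested. Reg3b, the nearest relative of Reg3g, had 0 counts in all libraries. Scgb1c1 had 6.44 ± 0.674 CPM in KO lungs and 5.07 ± 0.764 CPM in WT lungs at day 14 (adjusted p = 0.470 by edgeR), and Bpifb5 had 1.66 ± 0.304 CPM in KO lungs and 1.77 ± 0.239 CPM in WT lungs. Lbp, which binds bacterial lipopolysaccharide, had 78.4 ± 7.15 CPM at day 14 and 96.5 ± 7.79 CPM at day 0 in KO lungs (adjusted p = 0.330 by edgeR).

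Regulators of the secretory state did not pass either, where at most 0.107% of all genes tested did in any comparison. Of 20 transcription factor and Notch genes, 9 were above 0 in KO against WT lungs at day 14 and 15 at day 0. Notch1 had 253.6 ± 23.6 CPM in KO lungs and 314.8 ± 42.9 CPM in WT lungs at day 14, or -0.31 on the log2 scale (SE 0.0899, adjusted p = 0.304 by edgeR). Nkx2-1, the lung identity factor, had 145.1 ± 4.92 CPM in KO lungs and 157.2 ± 6.93 CPM in WT lungs at day 14 (adjusted p = 0.394 by edgeR). At day 0, Cebpa had 85.6 ± 9.05 CPM in KO lungs and 67.5 ± 10.5 CPM in WT lungs, and Ehf had 24.8 ± 5.75 CPM in KO lungs and 20.8 ± 2.03 CPM in WT lungs. Between days in WT lungs, Foxa2 had 38.5 ± 5.57 CPM at day 14 and 31.6 ± 0.834 CPM at day 0. Of 13 tested genes of IL-13, IL-17 and IL-22 signalling (18 listed), cytokine pathways that act on goblet cells and on Reg3g, 4 were above 0 in KO against WT lungs at day 14 and 7 at day 0. Stat3 had 219.7 ± 20.05 CPM in KO lungs and 245.0 ± 19.1 CPM in WT lungs at day 14 (adjusted p = 0.470 by edgeR), and Nfkbiz had 17.3 ± 1.70 CPM in KO lungs and 25.6 ± 6.03 CPM in WT lungs at day 0 (adjusted p = 0.712 by edgeR).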

How the data were processed

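Whole-lung RNA was sequenced by the submitters. Per the submitters' processing notes, STAR 2.5.3, RSEM 1.3.0 and limma 3.38.3 were used with build mm10; the annotation and the strand of counting are not given in the sources used here. The authors deposited expected counts for each library, recognised as such by values that are not whole for 13.86 to 17.14% of genes, and 1 table of FPKM. The FPKM table gave the symbols and was joined to the counts by gene ID.

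Expected counts were rounded. One edgeR 4.0.16 model (R 4.3.3, TMM factors 0.977 to 1.01, filterByExpr, robust glmQLFit, glmQLFTest) was fitted over all 4 groups and 19557 genes; the common biological coefficient of variation was 0.152. Intervals are 95%, from the SE and the t quantile of each gene's degrees of freedom, and cover the spread between libraries. CPM use TMM-scaled totals. Correlations use log2 CPM with a prior count of 2. No library was a copy of another of its group, since the chi-square per gene between libraries of a group was at least 12.4. Pairs from different groups were not compared in this way. DESeq2 1.42.0, limma 3.58.1 on counts (voom) and on log2(FPKM + 1), other scalings and filters, and leaving out each library were tried. The code was tested on simulated data. The members and gene lists were chosen with earlier results of these data known. Named were all members, up to 2 genes with the smallest p of each related list at 1 CPM or more (none was called), the 5 genes with the highest mean r over the members and the 3 most like each member. Promoter windows matched 5 of the 8 members; that of Cyp2f2 reaches into the transcript and is not shown. No per-sample column of another series was present.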

Additional observations from a re-analysis of the deposited data

Results flagged for a closer look

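Bpifa1 had 167.7 CPM in KO day 14 library 3, which stood apart from the other 4 KO libraries of that day. Its gap to the next library, at 84.6 CPM, was 0.711 of the whole range down to 50.8 CPM, just past the limit of 0.710 that Dixon's test sets for 5 libraries. It was 1 of 24 groups of libraries looked at over the 8 members, and chance marks about 1 in 20. The same library had the highest Bpifb1 (90.0 CPM), Scgb3a1 (223.5 CPM) and Reg3g (26.1 CPM) of the KO day 14 libraries.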

How the results depend on the processing

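No member was called in any of the 5 comparisons under any setting tried (RLE size factors, library size alone, no filter, DESeq2, limma-voom, only the groups compared, log2(FPKM + 1) with and without a filter, log2(FPKM + 0.1), and leaving out each library); the lowest adjusted p of a member was 0.262, for Muc5b in WT lungs between days by DESeq2. The fit on only the groups compared was not made for the difference between the KO effects, which uses all groups. No paired analysis was possible because the labels give the groups no shared replicate numbers. Counts over all genes moved more. For KO against WT lungs at day 14, DESeq2 called 109 genes against 21. At day 0, against 5, DESeq2 called 26, the fit on only the groups compared 13 and log2(FPKM + 1) without a filter 17, and leaving out a library gave 2 to 7. Between days the counts of 0 became, in KO lungs, 93 by DESeq2, 2 on only the groups compared, 4 on either FPKM scale and 26 without a filter, and, in WT lungs, 113 by DESeq2, 3 with RLE, 5 without a filter and 1 by limma-voom. They reached 12 in KO lungs without KO day 14 library 2, and 22 in WT lungs without WT day 14 library 5. For the difference between the KO effects, DESeq2 called 9, library size alone 1, and FPKM 4, 3 and, without a filter, 12. Muc5ac between days in WT lungs passed by DESeq2 alone; it was too low for the filtered FPKM fits.

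Signs of small changes turned. On the FPKM scales the log2 fold change of Scgb3a2 at day 0 was -0.0076 and that of Bpifa1 at day 14 was 0.23 (0.24 with the pseudocount of 0.1), the second being 0.26 by limma-voom; without a filter the difference between the KO effects for Scgb1a1 was -0.00048. The cause was not tested. Leaving out 1 library at a time gave these ranges of log2 fold change for results whose sign turned. In KO against WT lungs at day 14 it was -0.47 to 0.37 for Bpifa1. At day 0 it was -0.071 to 0.26 for Scgb1a1, -0.20 to 0.24 for Scgb3a2, -0.38 to 1.09 for Bpifa1, -0.34 to 0.59 for Muc5b and -0.0081 to 0.47 for Ehf. At day 14 against day 0 in KO lungs it was -0.11 to 0.23 for Scgb1a1, -0.11 to 0.18 for Scgb3a1, -0.14 to 0.30 for Scgb3a2, -0.074 to 0.068 for Cyp2f2, -0.41 to 1.04 for Bpifa1, -0.75 to 0.059 for Bpifb1, -0.86 to 0.070 for Muc5b, -0.68 to 0.10 for Reg3g and -1.16 to 0.33 for Lcn2. In WT lungs it was -0.016 to 0.087 for Scgb1a1, -0.0071 to 0.11 for Cyp2f2, -0.13 to 0.32 for Bpifb1 and -0.38 to 0.031 for Reg3g. For the difference between the KO effects it was -0.15 to 0.18 for Scgb1a1, -0.042 to 0.39 for Scgb3a2, -0.12 to 0.030 for Cyp2f2, -1.19 to 0.29 for Bpifa1, -0.21 to 0.71 for Muc5b, -0.56 to 0.22 for Reg3g, -0.0099 to 0.27 for Scgb1c1 and -0.022 to 0.37 for Slpi.

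Of the correlations, 10 pairs of members passed, and 7 to 10 did when a library was left out. The 9 pairs with marker lists became 5 to 11, with 5 without KO day 14 library 1, without WT day 0 library 1 or without KO day 14 library 3. In the 11 libraries of day 14 alone, a setting chosen after seeing the data, 5 pairs of members and 3 pairs with lists passed, with fewer samples. There r turned to -0.115 for Scgb1a1 and Bpifb1, -0.0779 for Scgb1a1 and Muc5b, -0.0328 for Scgb3a2 and Bpifb1 and -0.0578 for Scgb1a1 and basal cells, and on the FPKM scale to -0.0106 for Reg3g and alveolar type 2 cells; none of these had passed. Scgb1a1 with Scgb3a2 (0.864 to 0.914), Scgb1a1 with Cyp2f2 (0.657 to 0.839), Bpifa1 with Bpifb1 (0.913 to 0.941), Scgb3a1 with Bpifb1 (0.857 to 0.892) and Bpifb1 with Reg3g (0.679 to 0.815) passed whichever library was left out. Bpifa1 with Reg3g missed the threshold in 13 of 17 runs, Scgb3a1 with Reg3g in 10, Scgb3a2 with Cyp2f2 in 7, Scgb3a1 with Bpifa1 in 3 and Muc5b with Reg3g in 1. With lists, Muc5b and basal cells missed it in 15, Reg3g and basal cells in 14, Scgb3a2 and ciliated cells in 7 and Cyp2f2 and ciliated cells in 4. Signs of r that turned when a library was left out were those of Scgb1a1 and Reg3g (-0.302 to 0.116), Cyp2f2 and Muc5b (-0.0728 to 0.318), of alveolar type 2 cells with Scgb3a1 (-0.0778 to 0.261), Cyp2f2 (-0.421 to 0.119), Bpifa1 (-0.0223 to 0.489), Bpifb1 (-0.239 to 0.288) and Reg3g (-0.00706 to 0.288), of ciliated cells with Bpifa1 (-0.0816 to 0.217) and Reg3g (-0.193 to 0.0443), and of smooth muscle with Bpifa1 (-0.0345 to 0.675). Low genes, such as Reg3g and Muc5ac, had fewer counts than Scgb1a1, and what depth adds to their spread was not tested. The 2 libraries of KO lung at day 0 limit every comparison that uses them.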
